A study of Mus musculus with 23 samples.

Results

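Late fetal mouse lungs without Rarres1 were compared with wild-type lungs at embryonic day 19.5 (E19.5), the last day or so before birth. The comparison takes every library of that age, 3 Rarres1 knockout (KO) and 3 wild-type (WT) of the 23 libraries of the series, and all 24411 genes of the deposited count table. Both genotypes had a C57BL/6 background and were housed behind a barrier free of pathogens, received no treatment, and gave whole lung without tumour, from which total RNA was sequenced. The labels number the embryos 1 to 3 in each genotype. Their sex and litter, the targeted exons of the knockout allele and whether littermates served as controls are not given in the sources used here. The labels say only that the embryos are separate samples, so p-values measure only the spread between these 6 samples. 2 adult comparisons of the same series are used at the end, all from male C57BL/6 mice. They take 3 KO and 3 WT lungs at 10 months, and 5 KO lung samples labelled normal and 3 WT lungs at 18 months. The series also holds 3 tumour samples from KO mice of 18 months, and their column numbers recur among these 5. KO samples without tumour at 18 months need therefore not come from mice without tumours.

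Rarres1 (retinoic acid receptor responder 1, also known as TIG1) encodes a membrane protein related to latexin, an inhibitor of carboxypeptidases. It was found as a gene that the retinoid tazarotene switches on in skin, and it is silenced by methylation in many carcinomas. Retinoic acid acts through RAR and RXR nuclear receptors, which bind pairs of a short half-site in DNA, and it guides branching and alveolus formation in the lung. At the end of gestation the distal lung epithelium separates into thin type 1 cells, through which gas is exchanged, and type 2 cells, which make surfactant, while glucocorticoids and sodium channels ready the lung for air.

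Rarres1 was nearly absent from the KO lungs. In the GRCm38.p6 annotation of RefSeq the gene spans chr3:67478886-67515523 on the minus strand. Its expected read counts were 42, 24 and 39 in the WT embryos and 1, 1 and 0 in the KO embryos. As CPM of total counts the WT level was 1.35 ± 0.361 (SD, n = 3) and the KO level 0.0248 ± 0.0216 (SD, n = 3). WT was 53.2-fold higher, with a counting interval of 14.4 to 445 at 95%. The genotypes did not overlap, and the exact two-sided permutation p was 0.1, the smallest that 3 against 3 embryos allow. In edgeR's quasi-likelihood test across all genes the log2 fold change was −5.49 ± 0.59 (SE; 95% interval −6.84 to −4.14), unadjusted p = 8.0e-06 and adjusted p = 0.122. The gene was low even in WT fetal lung, at 1.23, 0.78 and 1.36 FPKM, and the ratio rests on 105 WT and 2 KO reads. The adjusted p was 0.00685 in DESeq2, 0.00286 in an edgeR fit over all 23 libraries and 0.015 in limma with sample quality weights. The fit over 23 libraries, here and below, also held the 3 tumour libraries and the adult lungs, which helped to set its spread. It treated tumour and non-tumour samples that share a number as independent.

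Because Rarres1 is named for its response to retinoids, the 250 bases before its RefSeq start (chr3:67515524-67515773 of GRCm38.p6, minus strand) are shown, 5′ to 3′, with matches to the nuclear receptor half-sites AGGTCA and GGGTCA on either strand in capitals.
Rarres1: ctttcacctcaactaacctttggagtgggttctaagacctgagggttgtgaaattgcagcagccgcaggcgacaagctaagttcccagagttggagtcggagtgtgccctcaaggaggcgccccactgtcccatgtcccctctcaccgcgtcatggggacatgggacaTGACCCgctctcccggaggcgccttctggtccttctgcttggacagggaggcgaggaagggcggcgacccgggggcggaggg
The window holds 1 match, GGGTCA read on the opposite strand, 82 to 77 bases before the start. GGGTCA occurs in 11.5% of the 27025 RefSeq promoter windows of that length and AGGTCA in 13.8%, so a match of this kind is common.

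Latexin, Lxn, is the paralogue of Rarres1 and its close neighbour, with a gap of 15 kb (chr3:67457999-67463907). It was at 39.8, 46.6 and 34.1 CPM in the WT embryos and 36.3, 35.1 and 25.7 CPM in the KO embryos, after TMM scaling, as are all CPM values from here on. WT embryo 3 lay below KO embryos 1 and 2, so the genotypes overlapped. The log2 fold change was −0.31 ± 0.16 (95% interval −0.67 to 0.05), with an unadjusted p of 0.0796. With 1 embryo left out it ran from −0.42 without WT embryo 3 (unadjusted p = 0.0281, edgeR) to −0.17 without KO embryo 3. The 250 bases before its start held neither half-site. Gfm1, a mitochondrial elongation factor 3.8 kb away from Rarres1, was at 29.9, 28.8 and 30 CPM in the WT embryos and 27.6, 29 and 28.9 CPM in the KO embryos. Mfsd1, a lysosomal membrane transporter 67.2 kb away on the other side, was at 68.6, 71.5 and 66.3 CPM in the WT embryos and 67.1, 62.9 and 63.5 CPM in the KO embryos. Of the 10 nearest genes tested, 5 on each side, all overlapped between the genotypes and none had an unadjusted p under 0.05. Their log2 fold changes ran from −0.31 (Lxn) to 0.17.

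**Figure D1:**
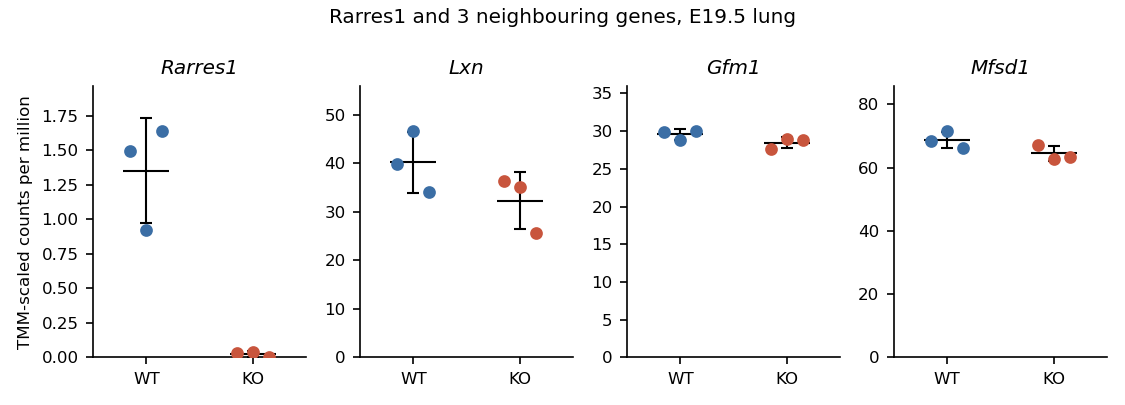
TMM-scaled CPM of Rarres1 and 3 neighbouring genes in each embryo (points) with the mean and SD of each genotype (n = 3, bars). Rarres1 lies at 0.0393 CPM or less in the 3 KO embryos and at 0.922 CPM or more in the WT embryos, while Lxn, Gfm1 and Mfsd1 overlap.

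The 6 libraries held 23911050 to 28674624 counts. WT embryo 3 stood apart from the other 5. It held 31145 Xist reads and 1 read of 4 Y-linked genes, against 5 to 22 Xist reads and 4066 to 4939 Y-linked reads in the others, the pattern of 1 female and 5 male libraries. Its log2(CPM + 1) values correlated with those of the other embryos at r = 0.9853 to 0.9868 across genes, where all other pairs lay between 0.9891 and 0.9959. It also held genes of tissues outside the lung parenchyma. Krt4, a keratin of stratified epithelium, was at 0.925, 0.961 and 396 CPM in the WT embryos and 0.726, 0.865 and 1.7 CPM in the KO embryos. Krt13, its partner, was at 0.178, 0.768 and 260.0 CPM in the WT embryos and 0.415, 0.275 and 0.373 CPM in the KO embryos. Of the basal and squamous epithelium list 9 of 14 genes were tested, with summed levels of 43.6 to 64.5 CPM in WT embryos 1 and 2 and 1022 CPM in WT embryo 3. Skeletal muscle genes, among them Myh3 (embryonic myosin) at 8.58, 5.84 and 66.1 CPM in the WT embryos and 19.2, 1.49 and 4.48 CPM in the KO embryos, were highest in the same embryo. So were fat, nerve and smooth muscle genes, which are given below. A second axis set KO embryo 3 apart: the first principal component took 40.2% of the variance, with WT embryo 3 at 32.6 and the others between −9.5 and 1.3, and the second took 28.4%, with KO embryo 3 at −27.8 and the others between 0.6 and 7.3. Many list results below are therefore given without a single embryo as well. When embryos were left out one at a time, the median log2 fold change lay on both sides of 0 for 27 of 39 lists.

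**Figure D2:**
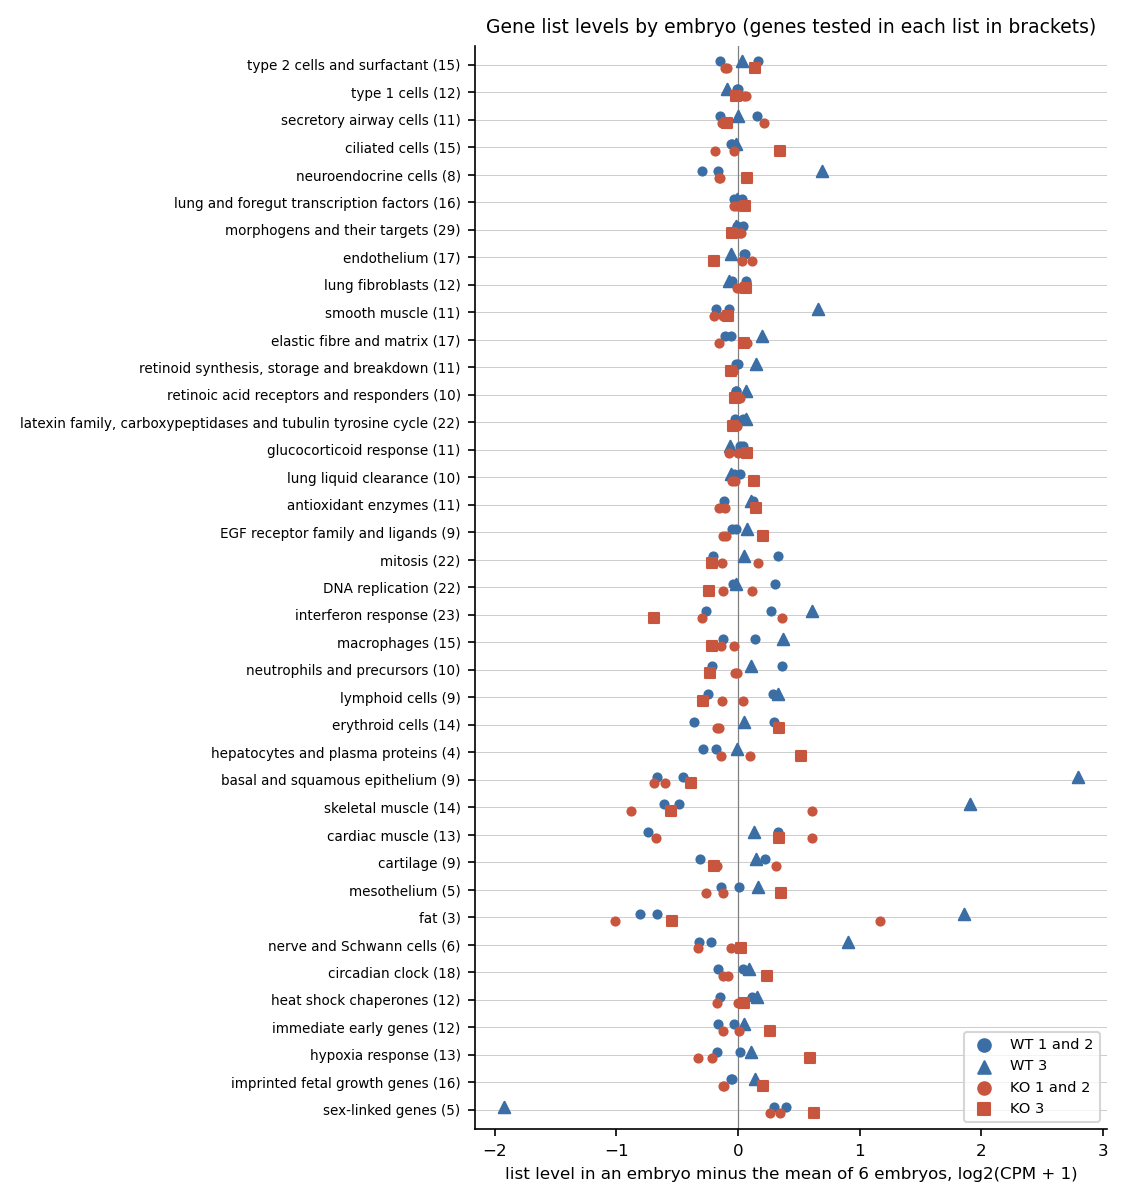
Level of each of 39 gene lists, the mean log2(CPM + 1) of its tested genes, in each embryo, as the difference from the mean of the 6 embryos. WT embryo 3 (triangle) stands apart for squamous epithelium, skeletal muscle, nerve, smooth muscle, neuroendocrine and sex-linked genes, and KO embryo 3 (square) for hypoxia response and ciliated cells. Fat genes are high in WT embryo 3 and KO embryo 2, and interferon response levels spread from 3.67 in KO embryo 3 to 4.96 in WT embryo 3.

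Across the transcriptome no gene passed the test. Of 15307 genes tested with edgeR's quasi-likelihood test, 0 had an adjusted p under 0.05 in either direction (0% higher and 0% lower). At an unadjusted p under 0.05 stood 144 genes (0.941%), 60 higher in KO (0.392%) and 84 lower (0.549%), where 765 would be met by chance if genes were independent and nothing differed. Counts of list genes at this p, given below, are to be read beside these shares. DESeq2 called 2 genes and limma with sample quality weights 2, in both cases Rarres1 and Gm14548. The edgeR fit over 23 libraries called Rarres1 alone. Without WT embryo 3, 0 of 15406 genes passed and 130 had an unadjusted p under 0.05 (0.844%). The genotypes did not overlap in 417 genes that were higher in KO (2.72%) and 358 that were lower (2.34%). Log2 fold changes lay above 0 for 51.2% of the genes, with a median of 0.0027. The median standard error was 0.117, and for 13763 genes (89.9%) the 95% interval lay wholly within a change of 2-fold in either direction. For the other genes a 2-fold change was not excluded by these embryos. Except for Rarres1 and Gm14548, the adjusted p of every gene named at E19.5 was 1.00, so the unadjusted p is given from here on to rank genes, not to call them.

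Gm14548, a member of the paired immunoglobulin-like receptor A (Pira) family on chromosome 7, was chosen for mention after its values were seen. It held 26.8, 37.1 and 26.4 expected reads in the WT embryos and 0 in each KO embryo (adjusted p = 0.164 in edgeR). Its sequence is close to that of its Pira neighbours, among which expected counts are split, so the count is uncertain. Summed with 6 Pira genes, the family held 236, 158 and 162 reads in WT and 171, 141 and 95.6 reads in KO embryos, and the genotypes overlapped. In each adult group of either genotype 1 library also listed the gene at 0 reads, and a KO lung at 10 months held 44.2 reads.

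**Figure D3:**
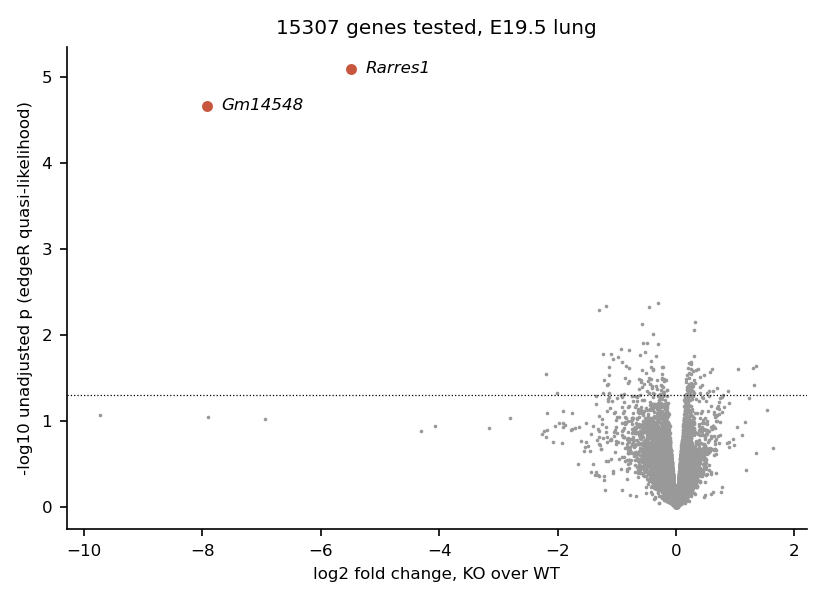
Each point is one of the 15307 genes tested: log2 fold change of KO over WT against the −log10 unadjusted p of edgeR's quasi-likelihood test, with a dotted line at the threshold of 0.05. Rarres1 and Gm14548 stand above all others, and the 3 points farthest to the left among the others are Xist, Krt13 and Krt4, which differ through WT embryo 3.

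Genes are next described by rank. In the higher direction 44 genes and in the lower direction 53 had an unadjusted p under 0.05, no overlap and 2 CPM or more in the higher genotype. These values chose the genes, so they are a description. Ahsg, the plasma glycoprotein fetuin-A, stood at 0.463, 1.73 and 1.47 CPM in the WT embryos and 3.25, 1.81 and 4.27 CPM in the KO embryos. KO embryo 2 exceeded the highest WT embryo only slightly. Calca, which encodes calcitonin and CGRP and is made by pulmonary neuroendocrine cells, stood at 2.17, 2.23 and 2.1 CPM in the WT embryos and 3.77, 2.52 and 3.61 CPM in the KO embryos. Irak3, a brake on Toll-like receptor signalling, was at 3.2, 3.53 and 3.11 CPM in the WT embryos and 4.01, 4.72 and 4.39 CPM in the KO embryos. Tnfsf15, a cytokine of the tumour necrosis factor family, was at 7.05, 6.03 and 5.59 CPM in the WT embryos and 8.2, 8.21 and 7.88 CPM in the KO embryos. All KO embryos lay above all WT embryos for these genes, as the rule requires. Col22a1 (log2 fold change 0.43 ± 0.18), Bcl2l14 (0.41 ± 0.18), Fndc7 (0.41 ± 0.16) and Pgbd5 (0.33 ± 0.12) complete the 8 genes highest in rank, and the folds of the 7 genes other than Ahsg ran from 1.26-fold (Pgbd5) to 1.52-fold (Calca).

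Among the genes lower in KO, Aldh3b2, an aldehyde dehydrogenase, was at 0.89, 0.768 and 5.08 CPM in the WT embryos and 0.484, 0.472 and 0.497 CPM in the KO embryos. Most of that difference lay in WT embryo 3, and its log2 fold change went from −2.19 to −0.78 without that embryo. Tg, thyroglobulin, the precursor of thyroid hormone, was at 2.06, 5.42 and 5.12 CPM in the WT embryos and 1.69, 1.65 and 1.74 CPM in the KO embryos. Here WT embryos 2 and 3 were both high, and the log2 fold change of −1.30 ± 0.35 became −1.14 without embryo 3. Fcna, a lectin of innate immunity, was at 2.95, 2.46 and 6.55 CPM in the WT embryos and 1.66, 2 and 1.91 CPM in the KO embryos. Chil3 (Ym1), a chitinase-like protein of macrophages, was at 13.6, 7.49 and 18.6 CPM in the WT embryos and 6.99, 6.96 and 6.96 CPM in the KO embryos. Cd163, a haemoglobin scavenger receptor of macrophages, was at 4.98, 3.88 and 9.2 CPM in the WT embryos and 3.11, 3.77 and 2.74 CPM in the KO embryos. The 3 KO embryos were close together for Fcna and Chil3, and WT embryo 3 was the highest library for all 3 genes. Aif1, a macrophage actin-binding protein (−0.63 ± 0.27), Nav3 (−0.80 ± 0.29) and Themis2, a signalling protein of B cells and macrophages (−0.62 ± 0.25), were also highest in WT embryo 3. Without that embryo the unadjusted p stayed under 0.05 for Tg, Fcna and Chil3 of the 8.

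The smallest unadjusted p-values after Rarres1 and Gm14548 among list genes belonged to small differences with little spread. Chad, chondroadherin, a matrix protein listed here with secretory airway cells, was at 45.8, 44.2 and 41.9 CPM in the WT embryos and 36.2, 33.8 and 37.4 CPM in the KO embryos (−0.30 ± 0.08, unadjusted p = 0.00418). Cdt1, which licenses replication origins, was at 14.8, 15.6 and 15.4 CPM in the WT embryos and 10.9, 12.7 and 9.74 CPM in the KO embryos (−0.46 ± 0.12, unadjusted p = 0.00468). Spry1, an inhibitor of FGF signalling that limits branching, was at 119.8, 135 and 125 CPM in the WT embryos and 155, 141 and 173 CPM in the KO embryos (0.30 ± 0.09, unadjusted p = 0.00873). In each of these 3 genes the genotypes did not overlap, with KO lower for Chad and Cdt1 and higher for Spry1.

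The markers of lung epithelium fitted the tissue label and lay close together in the 2 genotypes. Sftpc, surfactant protein C, was the leading type 2 gene at 22751, 18063 and 19944 FPKM in the WT embryos and 18562, 18333 and 16483 FPKM in the KO embryos. Sftpb, the surfactant protein needed for breathing at birth, was at 2501, 1956 and 2341 FPKM in the WT embryos and 2006, 2006 and 2470.5 FPKM in the KO embryos. Abca3, the lipid pump of lamellar bodies, was at 175, 151 and 173 FPKM in the WT embryos and 136, 159.7 and 148 FPKM in the KO embryos. The genotypes overlapped for all 3, and the 95% intervals of their log2 fold changes ran from −0.45 to 0.13 (Sftpc), −0.37 to 0.27 (Sftpb) and −0.40 to 0.08 (Abca3). Muc1, a mucin of the apical surface, had the lowest log2 fold change of the list (−0.19 ± 0.15). Of 15 type 2 and surfactant genes tested, 0 had an unadjusted p under 0.05, 10 lay below 0, the median log2 fold change was −0.05, and the intervals of all 15 lay within 2-fold.

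Type 1 cell genes leaned slightly upward in value. Ager, the receptor RAGE and a leading type 1 marker, was at 1376, 1317 and 1273 FPKM in the WT embryos and 1463, 1443 and 1231 FPKM in the KO embryos. Hopx, a homeodomain protein of type 1 cells, was at 378, 418 and 415 CPM in the WT embryos and 461, 431 and 480.2 CPM in the KO embryos, with no overlap and an unadjusted p of 0.0555. Akap5, a kinase anchor, was at 520.4, 568 and 507 CPM in the WT embryos and 572, 649 and 684 CPM in the KO embryos (0.25 ± 0.09), again with no overlap and with an unadjusted p of 0.0249. Clic5 (0.11 ± 0.09) and Emp2 (0.09 ± 0.10), a chloride channel protein and a membrane protein of these cells, overlapped. Of 12 genes 9 lay above 0, 1 had an unadjusted p under 0.05, the median was 0.07 and all intervals lay within 2-fold.

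In the airway, Scgb1a1, the secretoglobin of club cells, was at 5619.8, 4265 and 5419 FPKM in the WT embryos and 5105, 3838 and 3508 FPKM in the KO embryos. Scgb3a2, a second secretoglobin, was at 2646, 3421 and 2522 FPKM in the WT embryos and 3869, 2607 and 2433 FPKM in the KO embryos. Both overlapped, and the secretory list of 11 genes had a median of 0.05, with Chad as its 1 gene under an unadjusted p of 0.05. Ciliated cell genes lay above 0 in 14 of 15 cases with a median of 0.11, none with an unadjusted p under 0.05. Foxj1, the master regulator of motile cilia, was at 102, 101 and 115 CPM in the WT embryos and 101, 100.1 and 147 CPM in the KO embryos. Dnah5, a dynein heavy chain of the ciliary arm, was at 28.6, 25.7 and 29.1 CPM in the WT embryos and 25.8, 30.3 and 36.6 CPM in the KO embryos. Dynlrb2, a dynein light chain, was at 17.4, 20.4 and 18.9 CPM in the WT embryos and 19.4, 19.8 and 25.6 CPM in the KO embryos. KO embryo 3 was the highest library for each of the 3, and without it the median of the list was −0.05. Dnaic1, another arm dynein, was the 1 gene below 0, at 6.23, 6.07 and 6.01 CPM in the WT embryos and 5.19, 5.5 and 5.84 CPM in the KO embryos. Neuroendocrine genes (8 tested, median −0.21) included Chgb, a protein of secretory granules, at 0.783, 0.73 and 9.11 CPM in the WT embryos and 0.692, 0.786 and 1.08 CPM in the KO embryos. WT embryo 3 set that median, which was 0.21 without it.

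**Figure D4:**
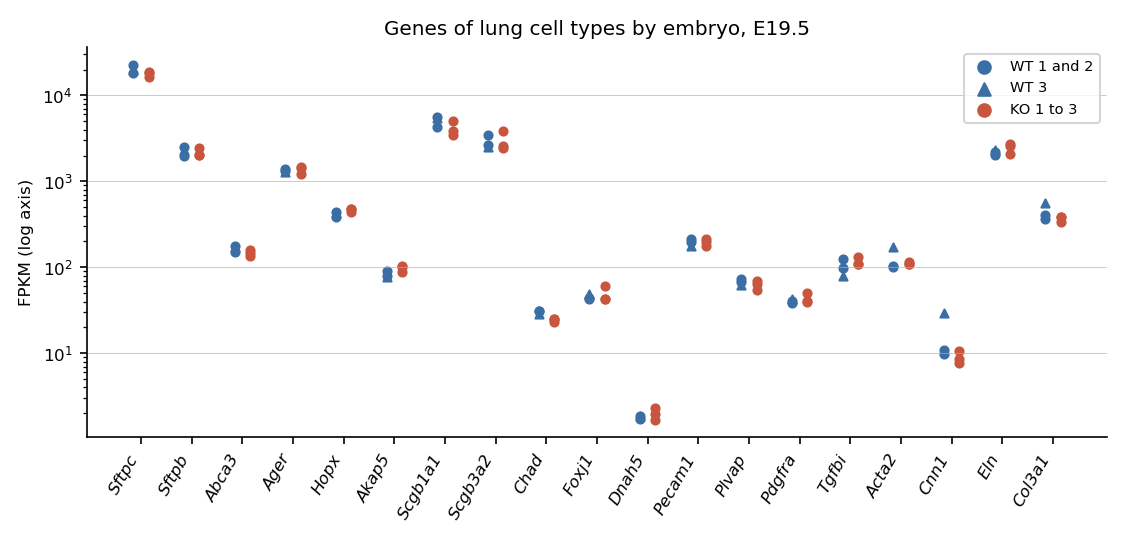
FPKM (log axis) of 19 genes of lung cell types and matrix in each embryo. The genotypes overlap for most genes, and WT embryo 3 (triangle) lies above the other 5 embryos for Acta2, Cnn1 and Col3a1.

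Transcription factors of the lung and foregut lay near 0 (16 tested, median 0.03, all intervals within 2-fold). Nkx2-1, the factor that defines lung epithelium, was at 363, 311 and 361 CPM in the WT embryos and 353, 339 and 418 CPM in the KO embryos. Foxa2, its partner in epithelial differentiation, was at 51.6, 49.4 and 45.7 CPM in the WT embryos and 54.2, 48.7 and 55.5 CPM in the KO embryos. Sox9, a factor of distal tip progenitors, was at 29.5, 17.2 and 29.6 CPM in the WT embryos and 18.7, 19.7 and 27.4 CPM in the KO embryos, and the genotypes overlapped for all 3. Mycn, a factor of proliferating distal epithelium, had the largest difference of the list (0.38 ± 0.18, unadjusted p = 0.059). Among 29 morphogens and their targets 2 had an unadjusted p under 0.05, Spry1 and Bmp4, both higher, and the median was 0.00. Bmp4, a growth factor of the distal bud, was at 47.4, 53.3 and 44.8 CPM in the WT embryos and 58.4, 53.3 and 55.2 CPM in the KO embryos. Fgf9, a mesothelial and epithelial ligand, was at 2.1, 2.19 and 1.89 CPM in the WT embryos and 1.9, 1.34 and 1.16 CPM in the KO embryos. Wnt2b, a ligand of lung specification, was at 6.09, 6.95 and 15 CPM in the WT embryos and 4.15, 4.99 and 7.96 CPM in the KO embryos, with WT embryo 3 again the highest.

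Endothelial genes showed a median of 0.01 over 17 genes, all with intervals within 2-fold. Pecam1, the pan-endothelial adhesion molecule, was at 608, 639.8 and 538 CPM in the WT embryos and 599, 653 and 568 CPM in the KO embryos. Plvap, a capillary diaphragm protein, was at 122, 129.9 and 112 CPM in the WT embryos and 115, 126 and 102 CPM in the KO embryos. Gja4, an arterial gap junction protein (−0.14 ± 0.12), and Prox1, the lymphatic factor (−0.27 ± 0.21), overlapped as well. In the fit of all 6 embryos none of the 17 had an unadjusted p under 0.05. Without WT embryo 3 the median was −0.06 and 15 of 17 lay below 0, and p-values of that fit are not given here. In whole lung RNA, fewer cells of a type and less RNA per cell cannot be told apart.

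Fibroblast genes had a median of 0.05 over 12 genes, 10 above 0, and a median of 0.00 with 6 above 0 without WT embryo 3. Pdgfra, the receptor of alveolar fibroblasts, was at 249, 255 and 269.6 CPM in the WT embryos and 250.4, 258 and 331 CPM in the KO embryos. Tgfbi, a matrix protein induced by TGF-beta, was at 244, 306 and 196 CPM in the WT embryos and 269, 326 and 279.8 CPM in the KO embryos, and Limch1, an actomyosin regulator, showed 0.05 ± 0.08. Smooth muscle genes stood lower by a median of 0.21, 9 of 11 below 0, and at a median of 0.00 without WT embryo 3. Cnn1, calponin, was at 19.4, 17 and 52.6 CPM in the WT embryos and 19.1, 15.3 and 14.1 CPM in the KO embryos. Actg2, enteric smooth muscle actin, was at 54.7, 33.5 and 132 CPM in the WT embryos and 31.2, 29.1 and 46.3 CPM in the KO embryos. Myh11, smooth muscle myosin, was at 152, 127 and 276 CPM in the WT embryos and 120.0, 145 and 143 CPM in the KO embryos. In each of the 3, WT embryo 3 lay far above 5 embryos that overlapped. Acta2 (−0.16 ± 0.21) and Synpo2 (−0.52 ± 0.27) had their highest value in the same embryo. Elastic fibre and matrix genes (17, median 0.00, 7 above 0) had a median of 0.08 with 13 above 0 without WT embryo 3. In the other direction, they had a median of −0.075 with 5 above 0 without WT embryo 2, and of −0.04 with 3 above 0 without KO embryo 2. They included Eln, elastin, at 2018, 2179.6 and 2295 FPKM in the WT embryos and 2099, 2555 and 2741 FPKM in the KO embryos. Col3a1, a fibrillar collagen, was at 366, 403 and 557 FPKM in the WT embryos and 341, 387 and 387 FPKM in the KO embryos, and both overlapped.

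As for all 15307 genes tested, no gene of the retinoid pathway passed the test. In synthesis, storage and breakdown 11 of 16 genes were tested, 0 had an unadjusted p under 0.05 and the median was −0.04. Aldh1a2, the main retinoic acid synthase of the embryo, was at 25.3, 31.6 and 30.2 CPM in the WT embryos and 27.6, 23.7 and 26.9 CPM in the KO embryos. Lrat, which esterifies retinol for storage, was at 2.1, 2.07 and 3.15 CPM in the WT embryos and 1.73, 1.81 and 1.37 CPM in the KO embryos, without overlap (−0.57 ± 0.26, unadjusted p = 0.0568). Crabp1, a cytosolic carrier of retinoic acid, was at 0.819, 0.999 and 1.18 CPM in the WT embryos and 0.726, 0.983 and 0.207 CPM in the KO embryos. Among 10 receptors and responders tested the median was −0.03. Rara, retinoic acid receptor alpha, was at 95.2, 78.9 and 81.2 CPM in the WT embryos and 78.8, 79.2 and 67.8 CPM in the KO embryos. Rarres2 (chemerin), which shares its name series with Rarres1 but not its family, was at 55.4, 51.2 and 50.1 CPM in the WT embryos and 64.4, 48.4 and 59.8 CPM in the KO embryos. Both overlapped between the genotypes.

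Latexin inhibits carboxypeptidases, and RARRES1 has been tied to the carboxypeptidases that remove tyrosine from tubulin. That family was therefore made a list, chosen like the others with earlier results of these data known. Of 22 genes tested 2 had an unadjusted p under 0.05, both lower, and the median was −0.01. Over all genes tested 0.549% were lower at that p. Cpxm1, a secreted carboxypeptidase-like protein, was at 21.6, 26.3 and 25.5 CPM in the WT embryos and 19.9, 19.8 and 19.5 CPM in the KO embryos (−0.31 ± 0.10, unadjusted p = 0.0126). Cpz, a carboxypeptidase that binds Wnt, was at 8.19, 8.53 and 12.9 CPM in the WT embryos and 7.75, 7 and 6.38 CPM in the KO embryos (−0.48 ± 0.19, unadjusted p = 0.0341). Neither overlapped, and the KO embryos of Cpxm1 lay within a narrow range. Cpxm2 was at 5.2, 4.73 and 10.1 CPM in the WT embryos and 4.39, 3.18 and 5.14 CPM in the KO embryos. For Cpz and Cpxm2 WT embryo 3 was again the highest, with log2 fold changes of −0.25 and −0.23 without it, whereas Cpxm1 kept −0.28.

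Among genes that prepare the lung for birth, as among all 15307 genes tested, none passed the test. Glucocorticoid response genes (11) had a median of −0.01, and Hsd11b1, which activates glucocorticoid in the fetal lung, was at 222, 216 and 197 CPM in the WT embryos and 253, 203 and 295 CPM in the KO embryos. Its opposite, Hsd11b2, showed −0.38 ± 0.29, Dusp1 0.19 ± 0.12 and Sgk1 −0.15 ± 0.11, all overlapping. For liquid clearance (10 genes, median 0.07, all intervals within 2-fold) the sodium channel subunits were the main members. Scnn1a was at 345, 346 and 373 CPM in the WT embryos and 349, 382 and 399 CPM in the KO embryos, Scnn1b showed 0.14 ± 0.11, and Scnn1g showed 0.18 ± 0.08 with no overlap and an unadjusted p of 0.0542. Antioxidant enzymes (11, median −0.06) included Prdx6, a peroxiredoxin that also handles surfactant lipid, at 419, 353 and 357 CPM in the WT embryos and 324, 322 and 337 CPM in the KO embryos (−0.20 ± 0.09, unadjusted p = 0.0493), and Sod3 (−0.37 ± 0.22). The EGF receptor family (9 tested, median −0.01) included Egfr at 22.7, 26.6 and 32.9 CPM in the WT embryos and 24.6, 26 and 27.7 CPM in the KO embryos and its ligand Areg (0.32 ± 0.48), which overlapped.

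Cell division genes lay on the lower side with small values. In mitosis 21 of 22 genes lay below 0, median −0.16, none with an unadjusted p under 0.05. Birc5 (survivin) was at 9.22, 15.8 and 11.7 CPM in the WT embryos and 10.5, 11.8 and 8.75 CPM in the KO embryos, Ccnb2 (cyclin B2) showed −0.24 ± 0.16 and Bub1, a spindle checkpoint kinase, −0.28 ± 0.20. WT embryo 2 was the highest library for each, and without it the median was 0.03. In DNA replication 19 of 22 lay below 0, median −0.18, with Cdt1 alone under an unadjusted p of 0.05. Pcna, the polymerase clamp, was at 62.5, 68.4 and 55.6 CPM in the WT embryos and 54.7, 58.2 and 53 CPM in the KO embryos. Mcm4 (−0.23 ± 0.12), a helicase subunit, and Rrm1 (−0.17 ± 0.09), which makes deoxynucleotides, were alike. That median was −0.06 without WT embryo 2 and −0.26 without WT embryo 3. Over all genes tested 7477 of 15307 lay below 0, and the median was 0.0027.

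Interferon response genes all lay below 0, 23 of 23 tested with a median of −0.44, but none had an unadjusted p under 0.05. Ifi44 was at 18.6, 33.8 and 35.6 CPM in the WT embryos and 29.3, 12.9 and 13.3 CPM in the KO embryos. Oasl1 was at 2.81, 5.8 and 7.94 CPM in the WT embryos and 4.32, 3.73 and 2.07 CPM in the KO embryos. Stat2, a transducer of the interferon signal, was at 58.1, 78.6 and 91.3 CPM in the WT embryos and 71.5, 55.7 and 47.1 CPM in the KO embryos. KO embryo 1 lay above WT embryo 1 in all 3, so the genotypes overlapped. Ddx58 (RIG-I), an RNA sensor, followed with −0.34 ± 0.20. The median was −0.13 without WT embryo 3, −0.22 without KO embryo 3 and −0.92 without KO embryo 1. With sample quality weights in limma it was −0.16, and that of the mitosis genes was −0.02 with 9 of 22 above 0.

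Macrophage genes (15, median −0.23, 13 below 0) had 1 gene under an unadjusted p of 0.05, Chil3. Mrc1, the mannose receptor, was at 36.6, 36.4 and 41.7 CPM in the WT embryos and 34.1, 36.8 and 30 CPM in the KO embryos. C1qc, a complement subunit, was at 24.7, 22.4 and 41.1 CPM in the WT embryos and 24, 23.5 and 19.7 CPM in the KO embryos. Marco, a scavenger receptor of alveolar macrophages, was at 25.1, 9.72 and 17.7 CPM in the WT embryos and 7.88, 7.86 and 15.5 CPM in the KO embryos. The median was −0.07 without WT embryo 3. Neutrophil genes (10 tested, median −0.19) included S100a8 at 19.7, 14.1 and 17.2 CPM in the WT embryos and 15.6, 14.9 and 12.6 CPM in the KO embryos and Ltf, lactoferrin, at 10.5, 11.9 and 33.1 CPM in the WT embryos and 11.2, 8.25 and 7.71 CPM in the KO embryos. Without WT embryo 1 that median was 0.00. Lymphoid genes were near the detection limit, with 9 of 15 tested, all 9 below 0, a median of −0.64 and −0.36 without WT embryo 3. Rag1, which recombines antigen receptor genes, was at 0.819, 0.423 and 0.924 CPM in the WT embryos and 0.311, 0.354 and 0.249 CPM in the KO embryos, and Il7r, the interleukin 7 receptor, at 0.569, 0.653 and 2.06 CPM in the WT embryos and 0.45, 0.432 and 0.497 CPM in the KO embryos. Both had unadjusted p-values under 0.05 (0.0166 and 0.0469) and no overlap, and Il7r went to −0.41 without WT embryo 3.

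Genes of other tissues were high in 1 or more embryos of either genotype. Of 14 hepatocyte and plasma protein genes 4 were tested, with a median of 0.60 and 3 above 0. Without a filter on low counts 12 of the 14 lay above 0 with a median of 1.26, and without KO embryo 3, with 5 tested, the median was 0.15. Alb, albumin, was at 1.49, 1.19 and 1.43 CPM in the WT embryos and 0.692, 3.58 and 5.06 CPM in the KO embryos, and Trf, transferrin, which lung makes itself, was at 1589, 1314 and 1382 CPM in the WT embryos and 1120.3, 1199.8 and 1275 CPM in the KO embryos (−0.25 ± 0.10). Skeletal muscle genes (14 tested) had a median of −1.15, and 0.58 without WT embryo 3. Myog, a muscle differentiation factor, was at 1.42, 0.73 and 7.9 CPM in the WT embryos and 1.87, 0.0393 and 0.663 CPM in the KO embryos, with KO embryo 1 the second highest. Fat genes (3 of 7 tested) included Adipoq, adiponectin, at 1.03, 0.154 and 8.57 CPM in the WT embryos and 0.104, 5.58 and 0 CPM in the KO embryos, and Cidea, of brown fat, at 0.392, 0.692 and 14.3 CPM in the WT embryos and 0.38, 8.69 and 0.539 CPM in the KO embryos. Both were highest in WT embryo 3 and KO embryo 2, and the median of −0.67 became 1.64 without WT embryo 3. Th, tyrosine hydroxylase of sympathetic nerve, was at 0.498, 0.192 and 5.92 CPM in the WT embryos and 0.311, 0.59 and 0.497 CPM in the KO embryos. Trp63, of basal cells, was at 0.747, 1.27 and 6.93 CPM in the WT embryos and 0.726, 0.865 and 1.04 CPM in the KO embryos. Cardiac genes (13, median 0.06, 8 above 0) had a median of 0.22 with 13 above 0 without WT embryo 3 and of −0.17 without WT embryo 1. They included Ryr2, the cardiac calcium release channel, at 48.9, 58.7 and 59.1 CPM in the WT embryos and 57.2, 74.7 and 71.6 CPM in the KO embryos (0.29 ± 0.12, unadjusted p = 0.0388), Myl2, ventricular myosin light chain, at 0.819, 2.11 and 2.1 CPM in the WT embryos and 12.9, 0.629 and 1.99 CPM in the KO embryos, and Nppb, a natriuretic peptide, at 0.214, 2.19 and 0.588 CPM in the WT embryos and 3.7, 0.0786 and 2.94 CPM in the KO embryos. The genotypes overlapped for each. Car3, carbonic anhydrase of muscle and fat, was among the most variable genes, at 6.66, 0.653 and 48.6 CPM in the WT embryos and 3.73, 41.7 and 0.0415 CPM in the KO embryos. The part of these tissues in the other differences was not tested.

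Hypoxia genes were highest in KO embryo 3. Their mean log2(CPM + 1) over 13 genes was 6.61, 6.42 and 6.70 for the WT embryos, against 6.38, 6.27 and 7.19 for the KO embryos. Bnip3, a mitophagy receptor, was at 144, 137 and 131 CPM in the WT embryos and 132, 111 and 261 CPM in the KO embryos. Ndrg1 was at 135, 137 and 141 CPM in the WT embryos and 125, 129.9 and 227 CPM in the KO embryos. Adm, adrenomedullin, showed 0.34 ± 0.40. The median of the list was 0.10 with all embryos and −0.25 without KO embryo 3. Heat shock chaperones (12, median −0.07) had 2 genes under an unadjusted p of 0.05, both lower: Bag3, a co-chaperone, at 73.5, 65.7 and 66.9 CPM in the WT embryos and 57.3, 64.8 and 53.5 CPM in the KO embryos (−0.23 ± 0.09), and Hspd1, the mitochondrial chaperonin, at 124, 124 and 128 CPM in the WT embryos and 114, 107 and 116 CPM in the KO embryos (−0.15 ± 0.07). Immediate early genes (12, median 0.13) included Jun (0.13 ± 0.07) and had no gene under an unadjusted p of 0.05. Their median was −0.03 without KO embryo 3 and −0.02, with 5 of 12 above 0, with sample quality weights. Imprinted fetal growth genes (16, median 0.01) had a median of −0.16 with 13 below 0 without KO embryo 3. They included Mirg, a maternally expressed RNA, at 30, 20.7 and 34.1 CPM in the WT embryos and 26.6, 20.4 and 67 CPM in the KO embryos, with KO embryo 3 the highest.

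Whether the genotype acted differently in fetal and adult lung was tested directly, as the difference of the KO effect between ages in one edgeR fit over 4 groups. At 10 months against E19.5 the effect was higher for 10 of 15994 genes (0.0625%) and lower for 15 (0.0938%) at an adjusted p under 0.05. At 18 months against E19.5 it was higher for 3 of 16055 genes (0.0187%) and lower for 4 (0.0249%). An unadjusted p under 0.05 was reached by 1215 genes (7.6%) at 10 months and 936 (5.83%) at 18 months. Both differences use the same E19.5 libraries. Of the circadian clock list 7 genes were among those at 10 months and 4 (Arntl, Npas2, Dbp and Hlf) at 18 months. In the fit over all 23 libraries 6 genes were called at 10 months, of which Arntl, Npas2, Dbp and Nr1d2 are of the clock list. The clock is a loop in which Arntl (BMAL1) with Clock or Npas2 switches on Per, Cry, Nr1d and the PAR bZIP factors Dbp, Tef and Hlf, and levels of these genes swing with the time of day in adult tissue. The labels give no hour of collection for any lung, and its part in these values was not tested.

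At E19.5 the clock genes of the 2 genotypes lay close together. Arntl was at 28, 26.1 and 28.4 CPM in the WT embryos and 31.7, 29.6 and 34 CPM in the KO embryos, with a small excess in KO (0.21 ± 0.09, unadjusted p = 0.0391). At 10 months it was at 36.4, 33.4 and 39.7 CPM in WT and 4.58, 6.63 and 7.21 CPM in KO lungs. The difference of the effects was −2.77 ± 0.18 at 10 months (adjusted p = 8.4e-06, edgeR) and −2.76 ± 0.28 at 18 months (adjusted p = 0.00107). Npas2 was at 23.1, 22.1 and 22.3 CPM in the WT embryos and 26.3, 22.7 and 29 CPM in the KO embryos at E19.5. At 10 months it was at 16.9, 15.3 and 14.6 CPM in WT and 1.95, 2.80 and 2.33 CPM in KO lungs. The difference of its effects was −2.93 ± 0.18 at 10 months (adjusted p = 3.44e-06) and −2.56 ± 0.31 at 18 months (adjusted p = 0.00357). Both genes were lower in KO at 10 months (adjusted p = 0.000573 for Arntl and 8.29e-05 for Npas2, edgeR), and in the fetal lungs their KO means lay above the WT means.

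The output genes went the other way. Dbp was at 9.01, 8.18 and 9.58 CPM in the WT embryos and 8.75, 8.73 and 11.4 CPM in the KO embryos at E19.5. At 10 months it was at 13.8, 16.0 and 14.3 CPM in WT and 209, 149 and 183 CPM in KO lungs. The difference of its effects was 3.53 ± 0.20 at 10 months and 2.95 ± 0.32 at 18 months (adjusted p = 3.44e-06 and 0.00107). Hlf was at 14.5, 13.8 and 17.4 CPM in the WT embryos and 14.6, 13.4 and 14.2 CPM in the KO embryos at E19.5, and at 14.6, 17.4 and 13.3 CPM in WT and 56.8, 55.3 and 44.8 CPM in KO lungs at 10 months. Its effects differed by 1.92 ± 0.18 and 1.60 ± 0.22 (adjusted p = 0.000208 and 0.0105). Per3, a period gene, was at 57.2, 46 and 55.8 CPM in the WT embryos and 53.4, 58.6 and 55.6 CPM in the KO embryos at E19.5 and differed by 1.66 ± 0.15 at 10 months (adjusted p = 0.000136). Nr1d2 (REV-ERB beta), a repressor of Arntl, was at 31, 28.2 and 29.7 CPM in the WT embryos and 29.3, 27.9 and 38.4 CPM in the KO embryos at E19.5 and differed by 1.19 ± 0.16 (adjusted p = 0.00719). Tef was at 206 ± 9.16 CPM in the WT embryos and 221 ± 34.2 CPM in the KO embryos (SD, n = 3 each) at E19.5 and differed by 1.08 ± 0.16 (adjusted p = 0.0152). Left out one at a time, 7 of the 12 libraries ended the call of Tef (adjusted p up to 0.0727), and KO embryo 2 ended that of Hlf at 18 months (adjusted p = 0.058). In the fit over 23 libraries the calls of Per3 (adjusted p = 0.241), Hlf (0.0896) and Tef (0.098) at 10 months and of Hlf (0.255) at 18 months were lost. The fetal intervals, −0.23 to 0.44 for Dbp and −0.39 to 0.15 for Hlf, held no change of 2-fold. Of 18 clock genes tested at E19.5 1 had an unadjusted p under 0.05, Arntl, and the median was 0.05.

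**Figure D5:**
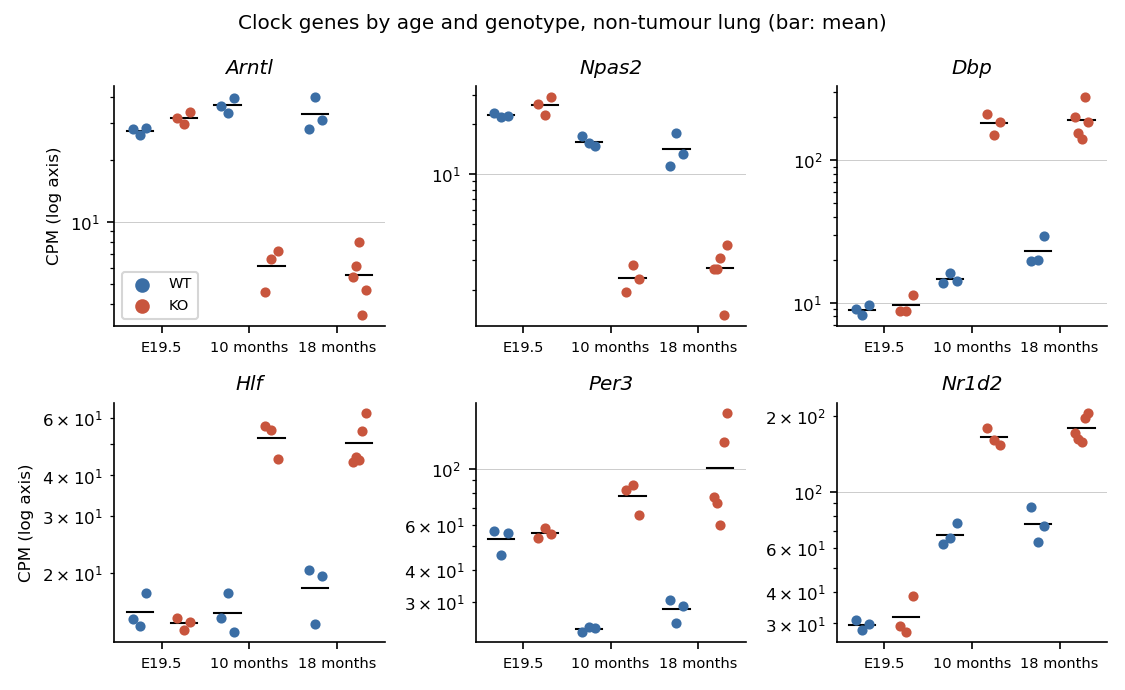
CPM (log axis) of 6 clock genes in each lung sample other than tumours, by age and genotype, with a bar at the mean. At E19.5 KO and WT lie side by side, and at 10 and 18 months Arntl and Npas2 are lower and Dbp, Hlf, Per3 and Nr1d2 higher in KO.

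Clock factors bind short elements that can be looked for in the promoters of these genes: the E-box CACGTG, bound by Arntl with Clock or Npas2, the D-box TTATGTAA or TTACGTAA, bound by Dbp, Tef and Hlf, and the half-site AGGTCA, bound by Nr1d proteins. The 250 bases before the RefSeq starts of Per3 (chr4:151044666-151044915, minus strand), Tef (chr15:81802423-81802672, plus strand) and Nr1d2 (chr14:18239107-18239356, minus strand) are shown because they hold matches, in capitals, and lie in GRCm38.p6.
Per3: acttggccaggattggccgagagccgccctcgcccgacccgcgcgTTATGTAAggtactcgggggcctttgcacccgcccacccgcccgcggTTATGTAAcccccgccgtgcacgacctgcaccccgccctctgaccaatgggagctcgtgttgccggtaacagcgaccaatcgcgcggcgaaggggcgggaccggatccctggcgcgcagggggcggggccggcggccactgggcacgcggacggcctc
Tef: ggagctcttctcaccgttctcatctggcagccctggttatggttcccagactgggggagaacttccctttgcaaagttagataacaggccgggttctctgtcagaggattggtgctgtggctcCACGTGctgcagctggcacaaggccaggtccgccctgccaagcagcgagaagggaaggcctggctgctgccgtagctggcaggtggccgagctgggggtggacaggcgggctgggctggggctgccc
Nr1d2: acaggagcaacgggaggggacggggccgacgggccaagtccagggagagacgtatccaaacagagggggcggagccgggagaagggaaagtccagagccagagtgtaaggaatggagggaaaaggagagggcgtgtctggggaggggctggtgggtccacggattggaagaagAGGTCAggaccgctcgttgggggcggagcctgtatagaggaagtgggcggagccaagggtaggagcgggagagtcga
Per3 holds TTATGTAA at 2 places, 205 to 198 and 158 to 151 bases before its start. Of 27025 windows 0.862% hold that D-box on either strand and 6 windows (0.0222%) hold it at least at 2 places. Tef holds CACGTG, found in 6.05% of windows, and Nr1d2 holds AGGTCA. The windows of Dbp, Arntl, Npas2 and Hlf hold none of these letters. Only the 250 bases before the first listed start of each gene were searched, so elements elsewhere were not looked for.

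Outside the clock list, Tspan4, a tetraspanin, was at 53.2 ± 1.46 CPM in the WT embryos and 53.9 ± 3.06 CPM in the KO embryos (SD, n = 3 each) at E19.5 and its effects differed by 1.55 ± 0.14 at 10 months and 1.22 ± 0.19 at 18 months (adjusted p = 0.000136 and 0.0262). Rasl11a, a small GTPase-like protein, was at 32.9 ± 1.57 CPM in the WT embryos and 37 ± 3.8 CPM in the KO embryos (SD, n = 3 each) and differed by −1.46 ± 0.19 and −1.67 ± 0.18 (adjusted p = 0.00397 and 0.00107). Hsph1, a heat shock protein that aids HSP70, was at 31, 25.2 and 35.5 CPM in the WT embryos and 29.1, 23.3 and 27.9 CPM in the KO embryos at E19.5 and differed by −1.51 ± 0.18 at 10 months (adjusted p = 0.00381). In the fit over 23 libraries the differences at 10 months were not called for Rasl11a (adjusted p = 0.183) and Hsph1 (adjusted p = 0.0978). The fetal effects themselves were 0.02 ± 0.07 for Tspan4, 0.17 ± 0.09 for Rasl11a and −0.19 ± 0.14 for Hsph1. Leaving out 1 library at a time, the difference at 18 months lost its call for Tspan4 in 8 of 14 fits, with adjusted p up to 0.141.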

How the data were processed

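RNA from whole mouse lung was sequenced, and the 6 E19.5 libraries were compared here (23911050 to 28674624 counts each), with 14 adult libraries for the difference between ages. The submitters' processing notes name Trimmomatic 0.36, STAR 2.5.2b, RSEM 1.3.0 and build mm10, with no roles or settings. The authors deposited expected counts per gene and FPKM (fragments scaled by gene length and depth), rounded to 2 decimals. Expected counts, as RSEM gives them, split reads between near-identical genes, so counts of such genes are uncertain. In the 6 libraries 6.95% to 7.34% of genes have a count with decimals. Every sample column of both tables belongs to this series.

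Expected counts were rounded and fitted in R 4.3.3 with edgeR 4.0.16: filterByExpr, TMM scaling, the robust quasi-likelihood F test, with p-values adjusted after Benjamini and Hochberg over every tested gene and genes called at an adjusted p under 0.05. Log2 fold changes carry a prior count of 0.125, their SE comes from the test, and ± is this SE for fold changes and the SD for levels. FPKM, a scale per length, was used to compare levels between genes. A list level is the mean log2(CPM + 1) of its tested genes. No list was tested as a set. The scripts were tested on simulated data. No pair of fetal libraries of the same genotype agreed within counting error (chi-square per degree of freedom of at least 14.9). The counting interval and the share of reads cover counting error only.

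The rule names Rarres1, Lxn and any gene called at E19.5, up to 8 genes per direction by size among those with an unadjusted p under 0.05, no overlap and at least 2 CPM, up to 4 genes per list by p and, for lung cell lists, by abundance, the most variable genes, the 5 nearest tested genes on each side of Rarres1, and genes called between ages. Predicted genes were left out of the ranking, and only part of the genes so named is described. The genes compared, the lists and the tests were chosen with earlier results of these data known. RefSeq names and coordinates (GRCm38.p6) matched 24161 genes by accession and 157 by symbol, and 93 had none. DESeq2 1.42.0 and limma 3.58.1 served as alternatives, and figures were drawn in Python 3.11.15 (matplotlib 3.10.9).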

Additional observations from a re-analysis of the deposited data

Results flagged for a closer look

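For the genes below the difference between KO and WT samples was not the same in fetal and adult lung. This was tested directly, as the interaction term of edgeR's quasi-likelihood test. The labels give no hour of collection, the adults were all male, and WT embryo 3 had the female pattern of sex-linked genes. The part of hour and sex in these differences was not tested. At 10 months minus E19.5 the differences of log2 fold changes that passed were 3.53 for Dbp, 1.55 for Tspan4, 1.66 for Per3, 1.92 for Hlf, 1.19 for Nr1d2, 1.10 for Wee1, 1.64 for Rasd2, 0.98 for Cirbp, 1.08 for Tef and 0.70 for Zfp346. On the lower side they were −2.93 for Npas2, −2.77 for Arntl, −1.13 for Dtx4, −1.23 for 5430416O09Rik, −1.27 for Npr3, −1.51 for Hsph1, −1.24 for Leo1, −1.46 for Rasl11a, −0.76 for Stip1, −1.02 for Acot1, −0.72 for Dapk1, −0.61 for Fam189a2, −2.82 for Spon2, −0.96 for Gprin3 and −0.71 for Glipr2. At 18 months minus E19.5 they were −2.76 for Arntl, −1.67 for Rasl11a, 2.95 for Dbp, −2.56 for Npas2, 1.60 for Hlf, −1.49 for 5430416O09Rik and 1.22 for Tspan4. The E19.5 log2 fold changes of these genes lay between −0.20 and 0.26. The set holds genes that the clock list used here does not include. Among them were Cirbp, a cold-inducible RNA-binding protein, Wee1, a kinase that restrains entry into mitosis, Npr3, a natriuretic peptide receptor, and Stip1, a co-chaperone. Whether these genes follow the clock was not tested. Rasd2, Dtx4, Leo1, Acot1, Dapk1, Fam189a2, Spon2, Zfp346, Gprin3 and Glipr2 are given by value only.

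In the group of 5 KO lungs at 18 months, the only one of its size used here, 25 genes were looked at for a library far from the others. Dapk1 was low in KO lung 6, at 87.1 CPM against 128 to 143 CPM in the other 4. About 1 in 20 such groups shows a gap of this kind by chance.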

How the results depend on the processing

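At E19.5 the count of called genes was 0 with RLE size factors, without a filter on low counts, in limma on log2(FPKM + 0.1) or log2(FPKM + 1), with Xist as a covariate and when any 1 embryo was left out (0 to 0). Xist stood at 1308 CPM in WT embryo 3 and at 0.912 CPM or less in the others. That covariate therefore mainly marks WT embryo 3 and is not separate from leaving this embryo out. The count was 2 in DESeq2, 1 in the fit over 23 libraries, 2 in limma on log2(FPKM + 0.1) without a filter and 2 in limma with sample quality weights. Rarres1 passed in these 4, with log2 fold changes of −5.73, −5.50, −3.33 and −4.80, and ranged from −5.85 to −5.03 when 1 embryo was left out. The labels do not pair the embryos by replicate number. Deviations of same-numbered embryos from the mean of their genotype correlated at −0.098, 0.095 and 0.161. With 3 embryos per genotype these values cannot show whether same-numbered embryos are paired. With the replicate number as a block in edgeR 0 genes were called at E19.5, and Rarres1 stood at −5.48 (adjusted p = 0.0724). With that block 19 and 7 genes were called for the differences at 10 and 18 months, of which 17 and 5 were calls of the fits reported. Those differences gave 25 and 7 genes in the fits reported, 107 and 32 in DESeq2, and 6 and 8 in the fit over 23 libraries, which kept 6 of the 25 and 6 of the 7 calls. Leaving out 1 library, adults included (an alternative chosen after seeing the data), gave 19 to 31 and 4 to 10 genes, the lowest 18-month count without KO embryo 2. Of the genes called, 18 of 25 and 4 of 7 kept their call in each such fit. At 10 months Cirbp lost its call without WT embryo 1 or 2 (adjusted p up to 0.0637), and Fam189a2, Glipr2, Gprin3, Spon2, Tef and Zfp346 in 7 or more of 12 fits. At 18 months 5430416O09Rik lost it in 7 of 14 fits, Tspan4 in 8 and Hlf without KO embryo 2 (adjusted p = 0.058). Log2 fold changes of described genes that turned sign, none of them called, were Scgb3a2 0.00, Chgb 0.09, Pecam1 −0.04, Acta2 0.13, Egfr 0.07, Krt4 0.02, Myh3 0.18, Adipoq 1.58, Cidea 2.45, Th 0.34, Xist 0.48 and Car3 2.00 with Xist as a covariate, Egfr 0.01, Areg −0.09, Cidea 0.81, Bnip3 −0.05, Nr1d2 −0.01, Mirg −0.03 and Car3 0.34 with sample quality weights, and Tspan4 0.00 in each of the limma fits on FPKM. Sign also turned without 1 embryo, over the ranges Acta2 −0.30 to 0.14, Adipoq −5.73 to 1.64, Adm −0.19 to 0.59, Areg −0.39 to 0.60, Bnip3 −0.18 to 0.51, Car3 −3.24 to 2.03, Chgb −2.53 to 0.16, Cidea −3.46 to 2.55, Dbp −0.03 to 0.17, Egfr −0.19 to 0.08, Foxj1 −0.07 to 0.23, Krt4 −7.52 to 0.20, Mirg −0.27 to 0.73, Myh3 −3.17 to 0.22, Myl2 −0.36 to 2.16, Ndrg1 −0.11 to 0.37, Nr1d2 −0.05 to 0.19, Pdgfra −0.02 to 0.19, Pecam1 −0.04 to 0.08, Per3 −0.02 to 0.13, Scgb3a2 −0.13 to 0.24, Sftpb −0.17 to 0.04, Tef −0.03 to 0.17, Th −2.77 to 0.40, Tspan4 −0.03 to 0.05 and Xist −10.34 to 0.72. The cause of these changes was not tested. Each genotype has 3 embryos, and Rarres1 had 105 WT and 2 KO reads in all. Over all tested genes the median SE of the log2 fold change was 0.117 and the median 95% interval reached 0.266 to each side. These intervals are for single genes, without adjustment for the number of genes tested. Smaller differences were mostly not detectable. Larger ones could also go uncalled, as that of Rarres1 did in the edgeR fit of the 6 embryos.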

Other observations

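Some of the most variable genes across the 6 embryos did not follow genotype. Eif3j1, a translation initiation subunit with a near-identical copy in the genome, was at 20.4, 0 and 41.6 CPM in the WT embryos and 0, 27 and 0.0415 CPM in the KO embryos, so it was listed at 0 or nearly 0 in 1 WT and 2 KO embryos, and its count is uncertain. Ddx3y, a Y-linked helicase, was at 75.6, 71.8 and 0.042 CPM in the WT embryos and 71.1, 68.9 and 81.7 CPM in the KO embryos, and Xist, the RNA of the inactive X, at 0.427, 0.192 and 1308 CPM in the WT embryos and 0.277, 0.393 and 0.912 CPM in the KO embryos.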
